A study of Mus musculus with 19 samples.

Results

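The genes described here are 53 members of the DNA replication machinery, chosen by name, out of 19486 genes in an RNA-seq table of 19 mouse liver tumor samples. All 53 were found in the table, where symbols stand in capitals (MCM2, GINS2, RRM1, RRM2, POLD3, RFC1 and so on; written below as mouse symbols); all were above 0 in every library, and all were among the 13253 genes that passed the filter on low values (a value of at least 1 in at least 3 libraries). By role they comprised 12 genes of the replicative helicase, 11 of origins and licensing, 6 of the sliding clamp and its loader, 9 of the polymerases, 7 of single-strand binding and Okazaki fragment maturation, 5 of dNTP supply and 3 of chromatin replication.

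The tumors are labelled as hepatocellular carcinoma of the liver, and their groups are named here as labelled: MYC_Twist1_OFF (3 libraries), MYC_Twist1_HCC (5), MYC_Recur (3), MYC_OFF (3) and MYC_HCC (5). The labels give no age, strain, transgene or its promoter, no treatment or time for OFF or Recur, and do not state how many animals were sampled; p-values here describe how these samples spread, which could be technical variation alone. The 10 MYC_Twist1_HCC and MYC_HCC libraries are marked as re-analysed and the other 9 are not. In a comparison of MYC_OFF, MYC_Recur or MYC_Twist1_OFF with an HCC group, the group and that mark therefore cannot be told apart. MYC_Twist1_HCC against MYC_HCC, MYC_Recur against MYC_OFF and MYC_Twist1_OFF against MYC_OFF each set libraries with the same mark side by side.

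Values are the authors' normalized signal per gene, whose unit and scaling per gene length are not given, so levels were compared between samples and not between genes. Sums per library ran from 507868 to 690310, sequencing depth is unknown, and no counting interval can be given. Myc lay between 32.6 and 59.8 in the 6 libraries labelled OFF and between 102 and 180.5 in the other 13. Twist1 was at most 0.27 in any library, so the labelled difference in Twist1 is not visible in the values and each direction between groups with and without that name rests on the labels. The 10 highest genes of a library took 21% to 28.8% of its sum in the OFF libraries and 6.95% to 12.7% in the others. In the 53 genes MYC_HCC 4 stood apart: it was the lowest of its group in 39 of the 53 genes, where 38.9% of all tested genes were lowest in it, and the results without it are given below. MYC_HCC 5 stood apart with it in other genes: Bc1, a small neuronal RNA, was 189.8 and 414 in MYC_HCC 4 and 5 and 4587 to 6115 in the other 3, and Dcn, a fibroblast marker, was 30.04 and 11.4 against at most 2.32, and the results were also computed without both. Without MYC_HCC 4 and 5, none of the 53 genes was called higher and 1 lower in MYC_Twist1_HCC against MYC_HCC. Of all tested genes 189 were then called higher and 163 lower. For MYC_OFF against MYC_HCC the same setting gave 4 higher and 35 lower of the 53 genes, and 2292 and 5359 of all tested genes. In bulk tissue, fewer cells that replicate their DNA and less of these RNAs per cell cannot be told apart. The summed level of 10 hepatocyte markers was 1878 to 2406 in MYC_Twist1_OFF, 5298 to 8072 in MYC_Twist1_HCC, 6578 to 8567 in MYC_Recur, 1800 to 2970.1 in MYC_OFF and 7979 to 14013 in MYC_HCC. The summed level of 10 T and NK cell markers was 12.98 to 17.7, 2.91 to 7.71, 3.75 to 6.42, 8.69 to 30.4 and 4.15 to 9.14 in the same order of groups, with Klrb1c at 0 throughout MYC_Recur. The sum of 8 endothelial markers was 65.7 to 114.0 in MYC_Twist1_OFF, 9.40 to 21.01 in MYC_Twist1_HCC, 5.17 to 10.8 in MYC_Recur, 32.5 to 88.9 in MYC_OFF and 11.2 to 82.97 in MYC_HCC. It was carried by Pecam1 in the OFF libraries (106, 59.6 and 60.6 in MYC_Twist1_OFF and 24.7, 81.6 and 52.7 in MYC_OFF): of 5 tested endothelial markers 2 were higher and 2 lower in MYC_OFF, and Cdh5 had 0.47, 0.95 and 3.81 in MYC_OFF, against 4.73, 3.37, 8.01, 39.3 and 6.80 in MYC_HCC. Of the hepatocyte markers 8 of 10 were lower in MYC_OFF than in MYC_HCC and none higher. Among 6 tested T and NK cell markers 3 were higher and none lower. Over all tested genes 39.4% were lower and 18.9% higher. The part of these marker lists in the results below was not tested.

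Replication starts at origins. The origin recognition complex (Orc1 to Orc6) binds DNA in G1 and, with Cdc6 and Cdt1, loads the ring of Mcm2 to Mcm7; geminin (Gmnn) blocks a second loading in the same cycle. In S phase the kinase Cdc7 with its activator Dbf4 switches the ring on, and Cdc45 and the GINS complex join it to form the moving helicase. Polymerase alpha with primase lays primers, replication factor C opens the clamp PCNA around DNA, and polymerases delta and epsilon extend the strands. Replication protein A covers single strands, Fen1, Dna2 and Lig1 finish Okazaki fragments, and ribonucleotide reductase (Rrm1 with Rrm2) and the thymidylate enzymes supply dNTPs. Most adult hepatocytes are out of the cell cycle, and many of these genes are known targets of E2F transcription factors, which act around the entry to S phase.

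Promoter sequences were looked at for motifs known from cell cycle and MYC biology. RefSeq promoters (GRCm38.p6, 250 bases before to 50 after the start, the first entry where a gene has more) matched 45 of the 53 genes. An E2F motif, searched on both strands as TTTCCCGC, TTTCGCGC, TTTGCCGC or TTTGGCGC, was present in 14 of 45 (31.1%), against 2.32% of 27025 promoters of the same length. CCAAT was present in 55.6% against 37.9% of all promoters, and the E-box CACGTG in 13.3% against 7.24%. CCAAT and CACGTG were also searched on both strands, and neighbouring matches may share bases. Among the 25 matched genes that were lower in both OFF comparisons, 5 (20.0%) held the E2F letters, and among the 14 matched genes that were neither lower in both nor higher in MYC_OFF, 7 (50.0%) did. Of the 6 genes higher in MYC_OFF 2 (33.3%) held them. CCAAT was present in 64.0%, 42.9% and 50.0% of these sets in that order, and CACGTG in 8.0%, 14.3% and 33.3%. Differences between the sets were not tested. A match is a description of these letters and does not show binding.

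Promoters of 6 genes are shown because their RNA levels followed contrasting courses: Rrm1, Rrm2 and Mcm3 were lower in both OFF groups, Mcm6 was not called in either, Pold3 was higher in MYC_OFF, and Rfc1 was high in MYC_HCC only. Capitals mark the E2F letters (TTTGGCGC and the like, or their reverse complement), CCAAT or its reverse complement ATTGG, and CACGTG. The windows are chr7:102441445-102441744 (plus strand), chr12:24708004-24708303 (plus strand), chr1:20820263-20820562 (minus strand), chr1:128359656-128359955 (minus strand), chr7:100121453-100121752 (minus strand) and chr5:65335590-65335889 (minus strand), each printed 5′ to 3′ along its gene.
Rrm1: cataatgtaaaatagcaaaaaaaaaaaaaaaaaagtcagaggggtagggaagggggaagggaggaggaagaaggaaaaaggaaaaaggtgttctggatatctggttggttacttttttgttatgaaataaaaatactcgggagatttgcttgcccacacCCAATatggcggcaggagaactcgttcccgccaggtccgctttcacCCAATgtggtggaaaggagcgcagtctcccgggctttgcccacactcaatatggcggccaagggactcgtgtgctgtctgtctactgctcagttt
Rrm2: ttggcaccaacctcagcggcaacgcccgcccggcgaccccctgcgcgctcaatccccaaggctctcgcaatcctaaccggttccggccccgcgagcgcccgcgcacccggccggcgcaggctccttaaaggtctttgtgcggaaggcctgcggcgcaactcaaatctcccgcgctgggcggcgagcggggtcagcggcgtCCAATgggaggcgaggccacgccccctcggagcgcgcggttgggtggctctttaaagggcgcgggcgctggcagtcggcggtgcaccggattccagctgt
Mcm3: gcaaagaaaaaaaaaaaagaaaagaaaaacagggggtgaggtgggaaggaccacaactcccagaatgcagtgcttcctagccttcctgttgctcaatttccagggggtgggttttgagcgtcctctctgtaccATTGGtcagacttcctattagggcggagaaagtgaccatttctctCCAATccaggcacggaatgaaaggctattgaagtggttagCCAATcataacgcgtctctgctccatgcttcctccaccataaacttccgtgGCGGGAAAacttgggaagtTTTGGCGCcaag
Mcm6: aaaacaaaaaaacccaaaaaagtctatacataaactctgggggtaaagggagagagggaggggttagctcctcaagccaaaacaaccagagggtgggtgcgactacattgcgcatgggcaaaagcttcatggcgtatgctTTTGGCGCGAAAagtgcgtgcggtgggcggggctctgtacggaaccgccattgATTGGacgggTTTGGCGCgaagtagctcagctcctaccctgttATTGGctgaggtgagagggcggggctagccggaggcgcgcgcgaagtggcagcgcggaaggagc
Pold3: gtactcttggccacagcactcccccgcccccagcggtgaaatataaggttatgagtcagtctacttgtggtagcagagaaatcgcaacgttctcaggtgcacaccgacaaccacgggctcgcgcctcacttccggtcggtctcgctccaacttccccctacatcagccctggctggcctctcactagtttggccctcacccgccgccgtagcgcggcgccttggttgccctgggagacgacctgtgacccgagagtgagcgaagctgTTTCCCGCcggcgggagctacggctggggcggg
Rfc1: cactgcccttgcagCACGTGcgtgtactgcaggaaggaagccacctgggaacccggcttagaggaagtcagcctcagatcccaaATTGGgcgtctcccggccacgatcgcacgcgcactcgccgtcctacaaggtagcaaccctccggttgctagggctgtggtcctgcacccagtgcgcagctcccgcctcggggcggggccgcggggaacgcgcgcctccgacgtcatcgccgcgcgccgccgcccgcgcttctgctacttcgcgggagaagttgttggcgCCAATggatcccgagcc
The Mcm3 and Mcm6 windows both hold E2F letters and CCAAT, although Mcm3 fell and Mcm6 was not called in the OFF groups. Rrm1 and Rrm2 hold CCAAT without the E2F letters searched. Rfc1 holds CACGTG and Pold3 an E2F motif without CCAAT.

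Replication genes were mostly lower in both OFF groups and were back up in MYC_Recur, while single members of several complexes went the other way. In MYC_OFF against MYC_HCC, 36 of 53 genes were lower and 6 higher by limma (adjusted p under 0.05 over all tested genes), where 39.4% of all tested genes were lower and 18.9% higher. In MYC_Twist1_OFF against MYC_Twist1_HCC, 33 were lower and 2 higher, where 33.5% of all genes were lower and 13.1% higher. In MYC_Recur against MYC_OFF, 32 were higher and 3 lower, where 37.5% of all genes were higher and 12% lower. The other comparisons gave few calls: 3 higher and 2 lower in MYC_Twist1_HCC against MYC_HCC (3.2% and 3.23% of all genes), and 4 higher and 2 lower in MYC_Recur against MYC_HCC (6.9% and 3.93%).

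The median log2 fold change of the 53 genes was -1.02 in MYC_OFF against MYC_HCC, where that of all tested genes was -0.38. It was -0.84 in MYC_Twist1_OFF against MYC_Twist1_HCC (all genes -0.32) and 1.04 in MYC_Recur against MYC_OFF (all genes 0.45). The split of calls moved with the scaling. In MYC_OFF against MYC_HCC, the median of ratios gave 11 genes higher and 26 lower, the trimmed mean of M values 10 and 26, and the upper quartile 11 and 23. Of all tested genes these scalings called 3828 higher and 3540 lower, 3667 and 3728, and 3987 and 3332, in place of 2511 and 5221. In MYC_Twist1_OFF against MYC_Twist1_HCC the same scalings gave 5 and 21, 4 and 26, and 6 and 20. All tested genes gave 2858 and 2767, 2701 and 2947, and 3041 and 2599 there. In MYC_Recur against MYC_OFF the scalings gave 19 higher and 7 lower, 21 and 6, and 17 and 7. Counts of all tested genes were 2750 and 2986, 2968 and 2771, and 2714 and 2970 in that comparison. The median of the 53 genes minus that of all genes moved less with the scaling, from -0.65 to -0.54 over the 4 other scalings in MYC_OFF against MYC_HCC. It moved more with the filter on low values. It was -0.64 in the main fit, -0.98 with no filter and -0.45 with a value of at least 5 in 3 libraries. Without MYC_HCC 4 the counts of the 53 genes were 6 higher and 37 lower in MYC_OFF and 2 and 34 in MYC_Twist1_OFF. They were 34 and 3 in MYC_Recur against MYC_OFF, 2 and 2 in MYC_Twist1_HCC, and 3 and 2 in MYC_Recur against MYC_HCC. All tested genes gave, in the same order, 2545 and 5514, 1875 and 4854, 5425 and 1695, 352 and 402, and 793 and 497.

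Of the 36 genes lower in MYC_OFF, 31 were also lower in MYC_Twist1_OFF, and 2 further genes, Dut and Chaf1a, were lower in MYC_Twist1_OFF only. The comparisons of MYC_Recur with MYC_OFF and of MYC_OFF with MYC_HCC share the MYC_OFF libraries, and are not independent. Of these 36 genes 30 were called higher in MYC_Recur against MYC_OFF, and 3 were called in MYC_Recur against MYC_HCC. The same overlaps were not counted among all tested genes lower in MYC_OFF. Whether 31 and 30 of the 36 exceed the shares of other genes was therefore not tested. Library values did not overlap, on the lower side, in 28 genes of MYC_OFF against MYC_HCC and 35 of MYC_Twist1_OFF against MYC_Twist1_HCC; over all tested genes these shares were 34.4% and 37.1%. MYC_Recur was above MYC_OFF without overlap in 33 genes (41.2% of all genes). The alternatives tried included leaving out each library in turn. Under every alternative, 23 of the 36, 20 of the 33 and 17 of the 32 calls held. The same shares among all called genes were not computed. These counts therefore do not show that calls of replication genes held more often than those of other genes. The 13 genes that lost their call in MYC_OFF under at least 1 alternative were Mcm5, Gins3, Orc2, Orc5, Pcna, Rfc3, Rfc4, Pola2, Prim2, Pole, Rpa3, Dna2 and Tk1. The 17 in MYC_Recur against MYC_OFF were Mcm2, Mcm4, Gins2 and Gins4 of the helicase, Orc6, Gmnn and Dbf4 of licensing and firing, Pola1, Prim1 and Pold1 of the polymerases, Rpa2, Rpa3, Lig1 and Fen1, the reductase genes Rrm1 and Rrm2, and Uhrf1.

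**Figure D1:**
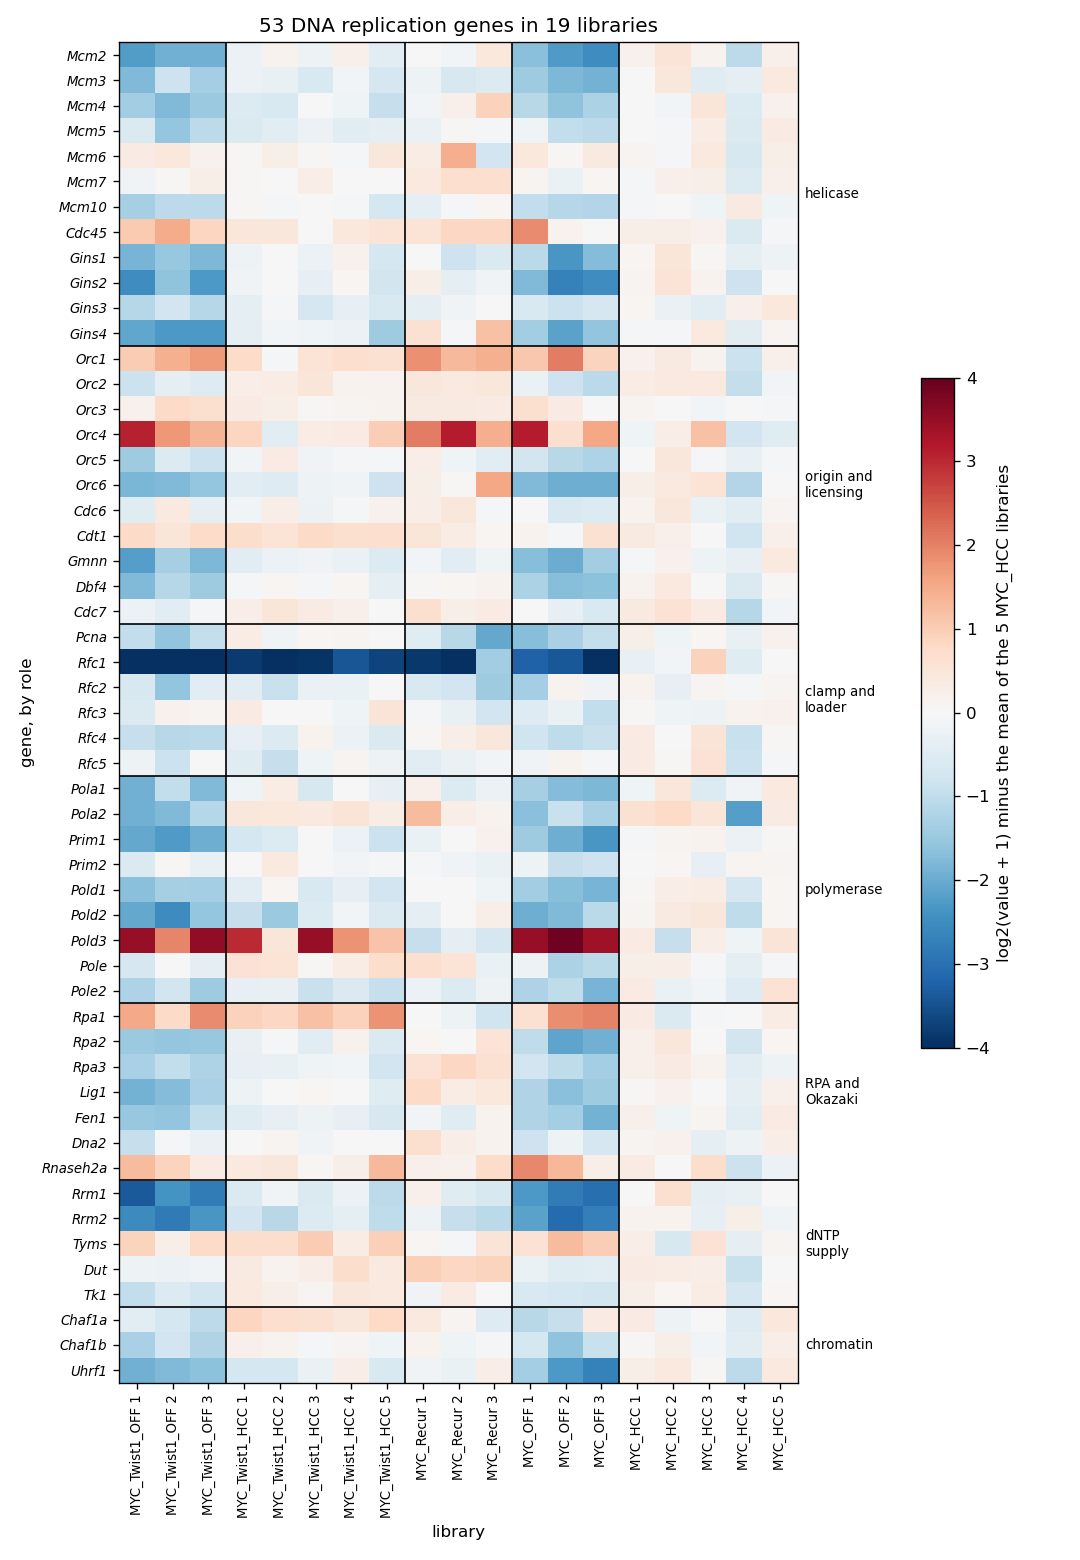
Log2(value + 1) of 53 replication genes in 19 libraries, minus the mean of the 5 MYC_HCC libraries (color), with genes in rows by role and libraries in columns by group. Most rows are blue in the MYC_Twist1_OFF and MYC_OFF columns and near white in MYC_Twist1_HCC and MYC_Recur; Pold3, Orc4, Orc1 and Rpa1 are red in OFF libraries, and Rfc1 is blue outside MYC_HCC.

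**Figure D2:**
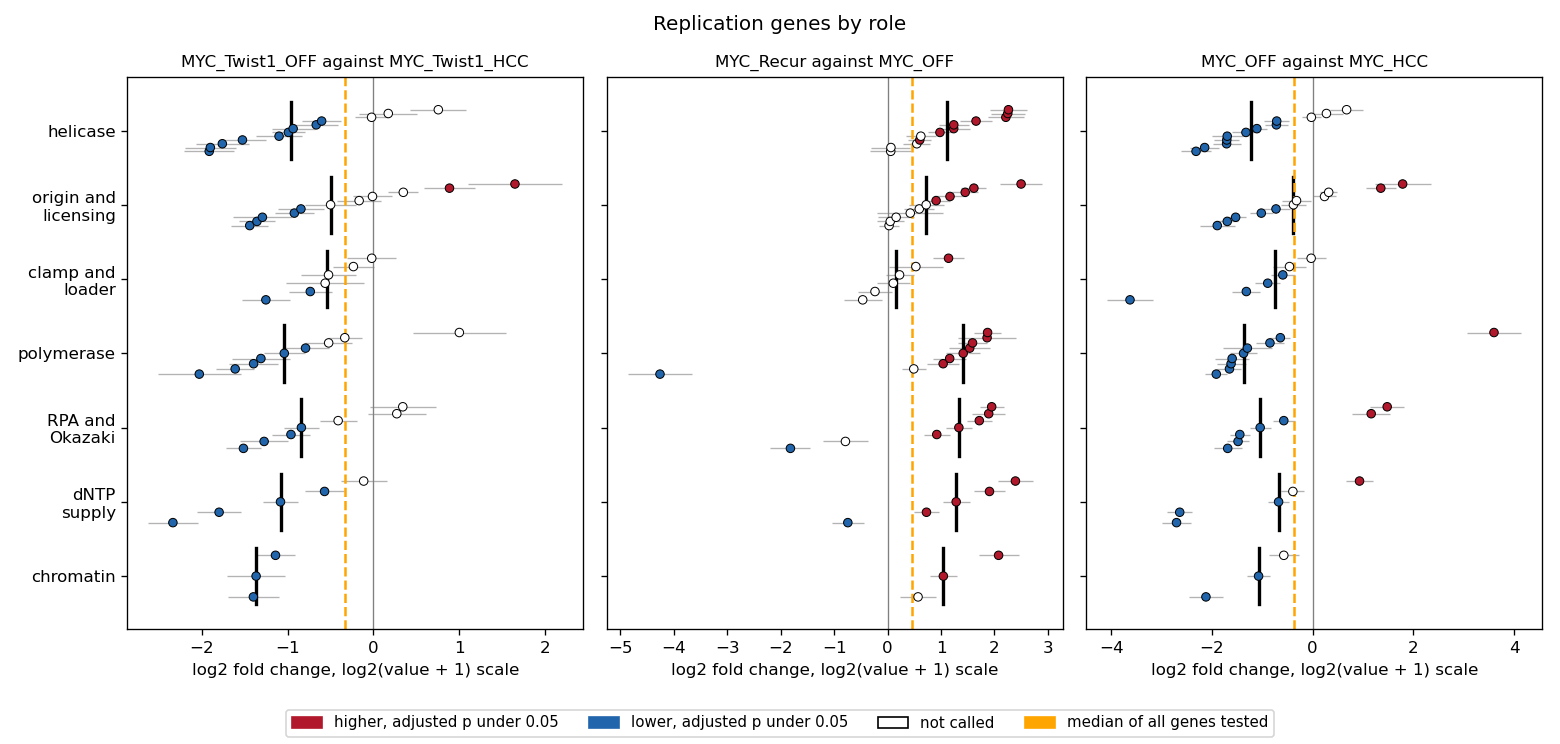
Log2 fold changes (x axis, log2(value + 1) scale) of the 53 genes by role (rows) in 3 comparisons; points are genes, gray bars the SE, black lines the median of a role, and the orange dashed line the median of all tested genes. Role medians lie below the all-gene median in both OFF comparisons except for origin and licensing in MYC_OFF, which is level with it (-0.38), and the clamp and loader median is the lowest of the 7 roles in MYC_Recur against MYC_OFF (0.17).

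In the helicase group 9 of 12 genes were lower and none higher in each OFF comparison, with medians of -1.22 for MYC_OFF and -0.96 for MYC_Twist1_OFF. Of all genes 39.4% were lower and 18.9% higher in MYC_OFF, and 33.5% and 13.1% in MYC_Twist1_OFF. All 4 GINS genes were among those lower, as were Mcm2, Mcm3, Mcm4 and Mcm5 of the ring and Mcm10, a factor that helps activate it. Gins3 was near the floor, between 0.16 and 2.46 in every library. In MYC_Twist1_OFF its call was lost without any 1 of 5 libraries, and that of Mcm5 without any 1 of 6. Both were also lost there under 3 of the 4 other scalings. In MYC_Recur against MYC_OFF 8 of the 12 were higher and none lower (37.5% and 12% of all genes).

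Mcm2, a subunit of the ring, had 13.3, 8.52 and 7.19 in MYC_OFF 1 to 3, against 51.1, 64.4, 49.9, 21.2 and 51.4 in MYC_HCC 1 to 5. It had 8.80, 11.1 and 11.1 in MYC_Twist1_OFF, against 37.9, 49.4, 38.6, 52.2 and 32.4 in MYC_Twist1_HCC. MYC_Recur 1 to 3 had 45.5, 41.2 and 60.3. The OFF libraries lay below every other library, although MYC_HCC 4 was the lowest of its group. The difference was past the test in MYC_OFF (log2 fold change -2.14, SE 0.29, adjusted p = 6.93e-06), in MYC_Twist1_OFF (-1.91, SE 0.29, adjusted p = 4.93e-05) and in MYC_Recur against MYC_OFF (2.25, SE 0.32, adjusted p = 2.33e-05).

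Gins2, a GINS subunit, stood at 11.1, 5.39 and 6.32 in MYC_OFF, against 43.8, 58.7, 44.4, 22.2 and 40.99 in MYC_HCC. MYC_Twist1_OFF values were 6.42, 12.5 and 7.44, against 36.1, 40.97, 31.8, 42.1 and 23.9 in MYC_Twist1_HCC, and MYC_Recur had 47.4, 30.1 and 36.7. No OFF library reached the lowest of the other groups, and Gins2 had the largest fall of the helicase genes in MYC_OFF (log2 fold change -2.31, SE 0.30, adjusted p = 4.39e-06; -1.90, SE 0.30, adjusted p = 7.09e-05 in MYC_Twist1_OFF). In the annotation 67.3% of the exonic length of Gins2 overlaps exons of other genes, Gse1 on the other strand, and since the labels do not say if reads were counted by strand, its reads are uncertain.

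Mcm3, another ring subunit, had 13.6, 10.4 and 9.63 in MYC_OFF, against 37.97, 53.3, 27.3, 29.8 and 50.4 in MYC_HCC. It had 10.6, 21.1 and 14.4 in MYC_Twist1_OFF, against 32.6, 31.3, 24.9, 35.5 and 23.5 in MYC_Twist1_HCC, and 33.03, 24.4 and 25.9 in MYC_Recur. The ranges were apart in both pairs, but MYC_Twist1_OFF 2 came close to the lowest MYC_Twist1_HCC library. The fall was -1.70 (SE 0.25, adjusted p = 1.79e-05) in MYC_OFF and -0.93 (SE 0.25, adjusted p = 0.00565) in MYC_Twist1_OFF; the second was lost without MYC_Twist1_OFF 1 and with 2 of the scalings.

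The other 6 helicase genes lower in MYC_OFF were Mcm4 (-1.32), Mcm5 (-0.71), Mcm10 (-1.11), Gins1 (-1.71), Gins3 (-0.72) and Gins4 (-1.70, log2 fold changes). In MYC_Recur against MYC_OFF, Mcm5 (0.62, adjusted p = 0.0761) and Gins3 (0.55, adjusted p = 0.0766) were not called higher, unlike the other 7 genes that were lower in MYC_OFF.

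Mcm6, Mcm7 and Cdc45 were not called in either OFF comparison, unlike the rest of the helicase genes. Mcm6, of the same ring as Mcm2, averaged 116 ± 10.4 in MYC_Twist1_OFF, 103 ± 15.1 in MYC_Twist1_HCC, 141 ± 103 in MYC_Recur, 113 ± 15.1 in MYC_OFF and 95.4 ± 23.9 in MYC_HCC (SD, n = 3, 5, 3, 3 and 5). Cdc45, which joins GINS on the ring, averaged 35.1 ± 28.8 in MYC_OFF and 18.1 ± 3.93 in MYC_HCC (log2 fold change 0.67, SE 0.33, adjusted p = 0.0851). Subunits of the ring thus had log2 fold changes from -2.14 (Mcm2) to 0.27 (Mcm6) in MYC_OFF; the difference between subunits was not tested. Mcm7 was called higher in MYC_Recur against MYC_OFF (log2 fold change 0.60, SE 0.21, adjusted p = 0.0245), but its sign turned with scaling by the median of ratios (-0.07) and by the upper quartile (-0.08).

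Of the origin and licensing genes, 5 of 11 were lower (Orc2, Orc5, Orc6, Gmnn and Dbf4) and 2 higher (Orc1 and Orc4) in each OFF comparison. In MYC_OFF these counts were near the shares of all genes (39.4% lower and 18.9% higher), and the median of the role and that of all genes were both -0.38. The shares of all genes in MYC_Twist1_OFF were 33.5% and 13.1%. Orc2 and Orc5, core subunits of the recognition complex, had log2 fold changes of -0.73 and -1.02 in MYC_OFF. Orc3, Cdc6, Cdt1 and Cdc7 were not called in either comparison (Cdc6 -0.38 in MYC_OFF, adjusted p = 0.203). Of the 11 genes, 5 were higher and none lower in MYC_Recur against MYC_OFF (37.5% and 12% of all genes).

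Gmnn, the inhibitor of relicensing, had 13.2, 10.6 and 16.4 in MYC_OFF, against 43.6, 50.7, 38.8, 35.9 and 59.9 in MYC_HCC. MYC_Twist1_OFF had 9.05, 17.5 and 12.2, against 32.3, 38.1, 40.7, 37.6 and 30.4 in MYC_Twist1_HCC, and MYC_Recur had 41.2, 33.3 and 39.8. The OFF values lay below all others, with a difference of -1.70 in MYC_OFF (SE 0.22, adjusted p = 3.88e-06), -1.44 in MYC_Twist1_OFF (adjusted p = 4.72e-05) and 1.45 in MYC_Recur against MYC_OFF (adjusted p = 9.15e-05). Cdt1, the loading factor that geminin binds, was not called: it had 34.1, 29.6 and 47.9 in MYC_OFF, against 39.4, 36.02, 31.2, 17.3 and 35.9 in MYC_HCC (log2 fold change 0.23, SE 0.23, adjusted p = 0.387).

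Dbf4, the activator of the Cdc7 kinase, had 12.8, 9.24 and 9.63 in MYC_OFF, against 35.4, 42.7, 31.99, 21 and 33.1 in MYC_HCC. Values were 8.69, 13.98 and 11.4 in MYC_Twist1_OFF, against 30.1, 33.9, 30.1, 33.6 and 24.3 in MYC_Twist1_HCC, and 33.5, 33.6 and 35.3 in MYC_Recur. Again the ranges were apart (log2 fold change -1.53, SE 0.21, adjusted p = 8.68e-06 in MYC_OFF; -1.36, SE 0.21, adjusted p = 6.25e-05 in MYC_Twist1_OFF). The kinase gene Cdc7 itself was not called (-0.32 in MYC_OFF, adjusted p = 0.361).

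Orc6, the subunit least tied to the core of the recognition complex, had 9.87, 8.44 and 8.40 in MYC_OFF, against 42.5, 47.02, 52.5, 15.3 and 35.6 in MYC_HCC. It had 9.41, 9.86 and 11.5 in MYC_Twist1_OFF, against 26.6, 24.8, 30.7, 32.5 and 19.8 in MYC_Twist1_HCC, and 42.1, 36.8 and 106 in MYC_Recur. MYC_Recur 3 was the highest library of all, while the OFF libraries were the lowest (log2 fold change -1.89, SE 0.35, adjusted p = 0.000169 in MYC_OFF; -1.29, SE 0.35, adjusted p = 0.00567 in MYC_Twist1_OFF; 2.50, SE 0.39, adjusted p = 4.73e-05 in MYC_Recur against MYC_OFF).

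Orc1 and Orc4, ATPase subunits of the same complex, were higher where Orc6 was lower. Orc1 had 13.2, 26.7 and 11.5 in MYC_OFF, against 6.42, 7.56, 6.27, 2.66 and 6.70 in MYC_HCC, and 12.4, 16.9 and 20.6 in MYC_Twist1_OFF, against 9.98, 5.32, 8.62, 9.58 and 9.04 in MYC_Twist1_HCC. MYC_Recur had 22.4, 15.4 and 16.8. Orc1 was thus higher without overlap in MYC_OFF (log2 fold change 1.35, SE 0.30, adjusted p = 0.00098), MYC_Twist1_OFF (0.89, SE 0.30, adjusted p = 0.0226) and MYC_Recur (1.51, SE 0.30, adjusted p = 0.00406 against MYC_HCC), and MYC_HCC 4 was its lowest library. The call in MYC_Twist1_OFF was lost without MYC_Twist1_HCC 2, MYC_Twist1_OFF 2 or MYC_Twist1_OFF 3, and with the replicate number as a block.

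Orc4 had 192, 33.03 and 62.3 in MYC_OFF, against 18.1, 24.8, 47.9, 11.6 and 14.6 in MYC_HCC, and 182, 71.3 and 54.1 in MYC_Twist1_OFF, against 38.6, 14.8, 25.4, 26.2 and 41.7 in MYC_Twist1_HCC. In MYC_Recur it had 87.7, 188 and 58.9. Values spread widely within MYC_OFF, MYC_Twist1_OFF and MYC_Recur, and MYC_OFF overlapped MYC_HCC through MYC_OFF 2 and MYC_HCC 3. The calls (log2 fold change 1.78, SE 0.55, adjusted p = 0.0103 in MYC_OFF; 1.65, SE 0.55, adjusted p = 0.0209 in MYC_Twist1_OFF; 2.21, SE 0.55, adjusted p = 0.0152 in MYC_Recur against MYC_HCC) each rested on 1 library or more: they were lost without MYC_OFF 1, without MYC_Twist1_OFF 1 or MYC_Twist1_HCC 2, and without MYC_Recur 2. Leaving out both MYC_HCC 4 and 5 also lost the calls of Orc4 in MYC_OFF and in MYC_Recur against MYC_HCC. The call in MYC_OFF was lost with array weights too. Orc1 and Orc4 differed from MYC_HCC in both MYC_OFF and MYC_Recur, neither of which is marked as re-analysed, and neither was called between MYC_Recur and MYC_OFF (adjusted p = 0.718 and 0.591).

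The clamp and its loader changed unevenly. In MYC_OFF 4 of 6 genes were lower and none higher (39.4% and 18.9% of all genes), with a median of -0.74. In MYC_Twist1_OFF 2 were lower, near the share of all genes (33.5%), with a median of -0.54. In MYC_Recur against MYC_OFF 1 was higher (37.5% of all genes), with a median of 0.17. Rfc2 (-0.46 in MYC_OFF, adjusted p = 0.227) and Rfc5 were not called in either OFF comparison.

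PCNA, the clamp itself (gene Pcna), had 52.7, 69.5 and 89.6 in MYC_OFF, against 202, 154, 183, 141 and 195 in MYC_HCC. Values were 86.8, 56.8 and 89.05 in MYC_Twist1_OFF, against 214, 157, 185, 186 and 176 in MYC_Twist1_HCC. MYC_Recur had 123, 80.6 and 41.3, below every MYC_HCC library and overlapping MYC_OFF. Pcna was lower in MYC_OFF (log2 fold change -1.32, SE 0.28, adjusted p = 0.000579), in MYC_Twist1_OFF (-1.25, SE 0.28, adjusted p = 0.00136) and in MYC_Recur against MYC_HCC (-1.21, SE 0.28, adjusted p = 0.00922), and was not called in MYC_Recur against MYC_OFF (0.11, SE 0.31, adjusted p = 0.796). Without MYC_Recur 3 the call against MYC_HCC was lost, and with the upper quartile that in MYC_OFF. The annotation lists 2 pseudogenes named for Pcna, so reads may be shared with them.

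Rfc1, the large subunit of the clamp loader, lies at chr5:65261850-65335670 on the minus strand (GENCODE annotation of GRCm38). It had 0.68, 0.78 and 0.55 in MYC_Twist1_OFF, 1.40, 1.03, 1.26, 2.16 and 1.59 in MYC_Twist1_HCC, 1.33, 1.09 and 11.9 in MYC_Recur and 2.62, 2.21 and 0.79 in MYC_OFF, against 26.5, 30.1, 62.8, 23.4 and 32.8 in MYC_HCC. No library outside MYC_HCC came above 11.9, the value of MYC_Recur 3, and no MYC_HCC library was below 23.4. Rfc1 was lower than MYC_HCC in MYC_OFF (log2 fold change -3.62, SE 0.45, adjusted p = 3.23e-06), in MYC_Twist1_HCC (-3.79, SE 0.39, adjusted p = 3.14e-05) and in MYC_Recur (-3.09, SE 0.45, adjusted p = 0.000334); the 3 comparisons share the MYC_HCC libraries. All 3 calls held under every alternative tried. MYC_Twist1_OFF against MYC_Twist1_HCC gave -0.56, SE 0.45, adjusted p = 0.324. The difference between the 2 OFF effects missed the threshold in the fit of 5 groups (3.06, SE 0.64, adjusted p = 0.097), and passed it with a pseudocount of 5 (2.29, adjusted p = 0.0298), with only the 4 groups fitted (3.06, adjusted p = 0.0119) and without MYC_Recur 3 (3.06, adjusted p = 0.00584).

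The smaller loader subunits had smaller differences. Rfc4 had 19.6, 16.7 and 18.4 in MYC_OFF, against 43.7, 34.9, 49.6, 18.01 and 36.01 in MYC_HCC, where MYC_HCC 4 overlapped the OFF range. It had 17.8, 15.4 and 15.9 in MYC_Twist1_OFF, against 27.4, 23.4, 38.1, 29.4 and 23.1 in MYC_Twist1_HCC, and 35.7, 41.6 and 47.4 in MYC_Recur. The calls for Rfc4 (log2 fold change -0.89, SE 0.25, adjusted p = 0.00566 in MYC_OFF; -0.73, SE 0.25, adjusted p = 0.0235 in MYC_Twist1_OFF; 1.14, SE 0.28, adjusted p = 0.00275 in MYC_Recur against MYC_OFF) were lost under 3 of the 4 other scalings. Rfc3 was called lower in MYC_OFF (log2 fold change -0.59, SE 0.24, adjusted p = 0.0381), but its sign turned with the upper quartile (0.0016), and Rfc5 averaged 37.8 ± 3.97 in MYC_OFF and 40.6 ± 13.9 in MYC_HCC (SD, n = 3 and 5; -0.03, SE 0.29, adjusted p = 0.934).

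Most polymerase genes fell, and Pold3 went the other way. In MYC_OFF 8 of 9 were lower and 1 higher (39.4% and 18.9% of all genes), with a median of -1.37. In MYC_Twist1_OFF 6 were lower and none higher (33.5% and 13.1% of all genes), with a median of -1.04. In MYC_Recur against MYC_OFF 7 were higher and 1 lower (37.5% and 12% of all genes), with a median of 1.42.

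Prim1, the catalytic subunit of primase, had 16.3, 10.98 and 8.22 in MYC_OFF, against 43.8, 49.3, 50.3, 38.6 and 47.5 in MYC_HCC. It had 10.2, 8.70 and 10.9 in MYC_Twist1_OFF, against 27.5, 30.7, 44.7, 38.4 and 24.5 in MYC_Twist1_HCC, and 37.5, 44.9 and 52.03 in MYC_Recur. OFF libraries were below all others (log2 fold change -1.91, SE 0.22, adjusted p = 1.4e-06 in MYC_OFF; -1.61, SE 0.22, adjusted p = 2.02e-05 in MYC_Twist1_OFF; 1.87, SE 0.25, adjusted p = 1.07e-05 in MYC_Recur against MYC_OFF). Prim2, its partner, was -0.64 in MYC_OFF (adjusted p = 0.011, lost under 3 scalings) and -0.33 in MYC_Twist1_OFF (adjusted p = 0.184).

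Pold1, the catalytic subunit of polymerase delta, had 2.38, 1.71 and 1.40 in MYC_OFF, against 8.17, 9.47, 9.78, 4.51 and 8.25 in MYC_HCC. Its values were 1.76, 2.54 and 2.40 in MYC_Twist1_OFF, against 5.44, 8.36, 4.72, 5.97 and 4.22 in MYC_Twist1_HCC, and 7.78, 7.73 and 6.84 in MYC_Recur. These ranges were apart (log2 fold change -1.65, SE 0.24, adjusted p = 1.42e-05 in MYC_OFF; -1.04, SE 0.24, adjusted p = 0.00181 in MYC_Twist1_OFF).

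Pold3, an accessory subunit of the same enzyme (chr7:100082111-100121565, minus strand), had 190.0, 255 and 179.6 in MYC_OFF, against 20.2, 8.10, 19.7, 14.01 and 23.1 in MYC_HCC. It had 189, 65 and 197 in MYC_Twist1_OFF, against 135, 22.9, 191, 58.7 and 36.6 in MYC_Twist1_HCC, and 7.96, 11.96 and 9.81 in MYC_Recur. MYC_OFF and MYC_Twist1_OFF were above every MYC_Recur and MYC_HCC library, while MYC_Twist1_HCC ranged from close to MYC_HCC to the OFF level. Pold3 was higher in MYC_OFF (log2 fold change 3.60, SE 0.54, adjusted p = 2.28e-05), lower in MYC_Recur against MYC_OFF (-4.26, SE 0.61, adjusted p = 2.14e-05) and higher in MYC_Twist1_HCC against MYC_HCC (1.98, SE 0.47, adjusted p = 0.0184), the last lost without MYC_Twist1_HCC 1. MYC_Twist1_OFF against MYC_Twist1_HCC gave 1.0043, SE 0.54, adjusted p = 0.136. Pold1, Pold2 and Pold3 thus had log2 fold changes of 1.59, 1.54 and -4.26 in MYC_Recur against MYC_OFF, neither marked as re-analysed; the call of Pold2 was lost under 3 of the 4 other scalings.

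Pola1, Pola2, Pole and Pole2, of polymerases alpha and epsilon, were also lower in MYC_OFF, with log2 fold changes of -1.62, -1.30, -0.85 and -1.37. Of these, Pole2 was not called in MYC_Twist1_OFF (-0.52, adjusted p = 0.124), and the calls of Pola2 and Pole in MYC_OFF were lost under 3 scalings. In Pola2 the library MYC_HCC 4, at 21.5, was below every MYC_OFF library, while the other 4 MYC_HCC libraries were above all of them, and the call was lost without any 1 of 6 libraries.

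Single-strand binding and Okazaki genes gave 5 lower and 2 higher of 7 in MYC_OFF (39.4% and 18.9% of all genes), with a median of -1.04. MYC_Twist1_OFF gave 4 lower and none higher (33.5% and 13.1% of all genes), with a median of -0.84. MYC_Recur against MYC_OFF gave 5 higher and 1 lower (37.5% and 12% of all genes), with a median of 1.33. The 2 genes higher in MYC_OFF were Rpa1 and Rnaseh2a.

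Lig1, the ligase that seals Okazaki fragments, had 17.9, 12.7 and 15.2 in MYC_OFF, against 44.4, 48.8, 42.1, 32.2 and 49.4 in MYC_HCC. It had 10.8, 12.2 and 16.8 in MYC_Twist1_OFF, against 36.9, 43.6, 44.98, 42 and 30.1 in MYC_Twist1_HCC, and 74.3, 53.2 and 58.1 in MYC_Recur. MYC_Recur was above all other libraries and the OFF libraries below, with log2 fold change -1.45, SE 0.20, adjusted p = 9.99e-06 in MYC_OFF and -1.51, SE 0.20, adjusted p = 1.61e-05 in MYC_Twist1_OFF. In MYC_Recur against MYC_OFF Lig1 had the smallest p of the 53 genes (1.95, SE 0.23, adjusted p = 3.7e-06), and against MYC_HCC it was not called (0.50, SE 0.20, adjusted p = 0.122).

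Fen1, the flap nuclease, had 12.5, 11.2 and 7.50 in MYC_OFF, against 34.5, 26.8, 32.5, 21.9 and 37.8 in MYC_HCC. MYC_Twist1_OFF had 9.87, 9.41 and 14.8, against 21.3, 23.8, 25.9, 23.6 and 19.1 in MYC_Twist1_HCC, and MYC_Recur had 28.1, 21.3 and 33.5. It was lower in MYC_OFF (log2 fold change -1.48, SE 0.22, adjusted p = 2.14e-05) and MYC_Twist1_OFF (-0.96, SE 0.22, adjusted p = 0.00191), the second not under the median of ratios or the upper quartile. Of its exonic length 84.2% overlaps exons of Tmem258 and Gm10143 on the other strand, which makes its reads uncertain. Dna2, a nuclease of long flaps, was lower in MYC_OFF (log2 fold change -0.57, SE 0.22, adjusted p = 0.0305), but its sign turned with the upper quartile (0.02).

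The 3 subunits of replication protein A did not move together. Rpa2 had 12.1, 5.06 and 5.89 in MYC_OFF, against 29.5, 35.1, 25.6, 14.7 and 26.6 in MYC_HCC, 8.45, 8.08 and 8.20 in MYC_Twist1_OFF, against 20.3, 24.8, 18.4, 28.9 and 16.5 in MYC_Twist1_HCC, and 26.7, 25.4 and 37.5 in MYC_Recur. Rpa3, the smallest subunit, had 33.6, 28.1 and 21.9 in MYC_OFF, against 66.02, 72.4, 63.7, 41.7 and 50.01 in MYC_HCC, 22.9, 28.6 and 24.2 in MYC_Twist1_OFF, against 45.9, 47.2, 51.1, 53.7 and 33.3 in MYC_Twist1_HCC, and 87.4, 104 and 87.8 in MYC_Recur. Rpa1, the large DNA-binding subunit, had 66.2, 159 and 175 in MYC_OFF, against 54.4, 29.02, 41.9, 43.3 and 53.3 in MYC_HCC, 126, 74.8 and 165 in MYC_Twist1_OFF, against 83.1, 76.9, 98.5, 82.9 and 153 in MYC_Twist1_HCC, and 42.5, 37.9 and 24.4 in MYC_Recur. Both small subunits were low in the OFF libraries, and Rpa1 was high there without overlap with MYC_HCC or MYC_Recur.

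In MYC_OFF against MYC_HCC the log2 fold changes were 1.48 for Rpa1 (SE 0.34, adjusted p = 0.0011), -1.69 for Rpa2 (SE 0.28, adjusted p = 5.97e-05) and -1.04 for Rpa3 (SE 0.21, adjusted p = 0.000361). In MYC_Recur against MYC_OFF they were -1.82 (adjusted p = 0.000652), 1.89 (adjusted p = 8.25e-05) and 1.72 (adjusted p = 1.36e-05), each held under every alternative tried. Rpa1 was also higher in MYC_Twist1_HCC than in MYC_HCC (1.12, SE 0.29, adjusted p = 0.0286), a call lost without any 1 of 5 libraries; MYC_Twist1_OFF against MYC_Twist1_HCC, which overlapped, gave 0.27, SE 0.34, adjusted p = 0.523. Rpa3 was higher in MYC_Recur than in MYC_HCC (0.68, SE 0.21, adjusted p = 0.0439), a call lost without any 1 of 13 libraries.

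Rnaseh2a, the catalytic subunit of the RNase H2 enzyme that cuts RNA in DNA, had 144, 94.6 and 43.3 in MYC_OFF, against 47.1, 37.7, 61.3, 19.9 and 31.4 in MYC_HCC. Values were 89.4, 69.2 and 46.9 in MYC_Twist1_OFF, against 48.3, 50.8, 38.6, 43.2 and 92.4 in MYC_Twist1_HCC, and 43.1, 41.7 and 62.1 in MYC_Recur. The groups overlapped, and the call in MYC_OFF (log2 fold change 1.16, SE 0.38, adjusted p = 0.0147) was lost without MYC_OFF 1 or MYC_OFF 2. That call was also lost when MYC_HCC 4 and 5 were both left out. Exons of Prdx2 and Gm49661 overlap 14.7% of its exonic length. Another subunit gene, Rnaseh2b, which is outside the 53, went the other way: 7.01, 3.79 and 3.31 in MYC_OFF, against 39.4, 52.4, 38.3, 20.7 and 38.5 in MYC_HCC (-2.77, SE 0.27, adjusted p = 3.15e-07).

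Genes of dNTP supply included Rrm1 and Rrm2, whose falls in MYC_OFF were the largest of the 53 after Rfc1. In MYC_OFF 3 of 5 were lower and 1 higher (39.4% and 18.9% of all genes), with a median of -0.68. In MYC_Twist1_OFF 4 were lower and none higher (33.5% and 13.1% of all genes), with a median of -1.08. In MYC_Recur against MYC_OFF 4 were higher and 1 lower (37.5% and 12% of all genes), with a median of 1.28.

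Rrm1, the large subunit of ribonucleotide reductase, had 9.99, 6.84 and 5.79 in MYC_OFF, against 53.9, 84.2, 41.03, 43.6 and 53.3 in MYC_HCC. It had 4.26, 9.29 and 6.83 in MYC_Twist1_OFF, against 35.4, 48.5, 35.2, 45.4 and 25.1 in MYC_Twist1_HCC, and 61.7, 38.1 and 33.6 in MYC_Recur. No OFF library was above 9.99, and no other library was below 25.1. Rrm1 was lower in MYC_OFF (log2 fold change -2.70, SE 0.29, adjusted p = 6.54e-07) and MYC_Twist1_OFF (-2.34, SE 0.29, adjusted p = 8.58e-06) and higher in MYC_Recur against MYC_OFF (2.39, SE 0.32, adjusted p = 1.31e-05).

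Rrm2, the small subunit, had 14.9, 7.30 and 9.57 in MYC_OFF, against 75.8, 75.2, 54.1, 81.03 and 60.96 in MYC_HCC. MYC_Twist1_OFF had 11, 8.79 and 13.01, against 40.3, 31.04, 46.98, 52.7 and 33.3 in MYC_Twist1_HCC, and MYC_Recur had 59.8, 35.6 and 32.2. Both subunits thus shared the same order of OFF below the other libraries. Rrm2 gave log2 fold change -2.64, SE 0.25, adjusted p = 2.61e-07 in MYC_OFF, -1.80, SE 0.25, adjusted p = 2.58e-05 in MYC_Twist1_OFF and 1.91, SE 0.28, adjusted p = 3.14e-05 in MYC_Recur against MYC_OFF. It was also lower in MYC_Twist1_HCC than in MYC_HCC, without overlap (-0.76, SE 0.22, adjusted p = 0.0451), a call lost without any 1 of 11 libraries.

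Tyms, thymidylate synthase, had 37.9, 61.7 and 50.5 in MYC_OFF, against 30.6, 15.98, 38.5, 19.7 and 27.6 in MYC_HCC, where MYC_OFF 1 fell within the MYC_HCC range. It had 47.6, 29.8 and 43.5 in MYC_Twist1_OFF, against 41.9, 41.7, 52.6, 31.1 and 50.2 in MYC_Twist1_HCC, and 26.8, 24.5 and 36.7 in MYC_Recur. Tyms was higher in MYC_OFF (log2 fold change 0.93, SE 0.27, adjusted p = 0.00671), opposite to the reductase genes, and -0.11 in MYC_Twist1_OFF (adjusted p = 0.755). It was lower in MYC_Recur against MYC_OFF (-0.74, SE 0.30, adjusted p = 0.048), a call lost without any 1 of 12 libraries. The annotation lists 1 pseudogene named for it.

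Dut, which removes dUTP, had 94.7, 85.9 and 90.9 in MYC_Recur, against 60.7, 59.7, 58.1, 25.8 and 48.1 in MYC_HCC and 40.4, 34.2 and 35.3 in MYC_OFF. It had 42.1, 40.9 and 43.4 in MYC_Twist1_OFF, against 62.02, 53.5, 58.6, 78.95 and 64.1 in MYC_Twist1_HCC. MYC_Recur was above every other library. Dut was higher in MYC_Recur against both MYC_OFF (log2 fold change 1.28, SE 0.25, adjusted p = 0.000462) and MYC_HCC (0.89, SE 0.23, adjusted p = 0.0172), the second lost without MYC_Recur 1 or MYC_Recur 3. The call against MYC_HCC was also lost with only the groups compared and with the replicate number as a block. Scaling by the upper quartile lost the call against MYC_OFF. The thymidine kinase gene Tk1 averaged 29.4 ± 4.85 in MYC_Twist1_OFF and 63.05 ± 6.01 in MYC_Twist1_HCC (SD, n = 3 and 5; -1.08, SE 0.20, adjusted p = 0.000341).

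Of the chromatin replication genes, 2 of 3 were lower in MYC_OFF and 3 of 3 in MYC_Twist1_OFF (medians -1.07 and -1.37), where 39.4% and 33.5% of all genes were. Uhrf1, which recognises hemimethylated DNA behind the fork, had 15.7, 7.67 and 5.49 in MYC_OFF, against 48.8, 55.1, 42.96, 19.5 and 54.5 in MYC_HCC. It had 10.2, 11.6 and 12.8 in MYC_Twist1_OFF, against 25.2, 25.2, 34.5, 49.97 and 27.02 in MYC_Twist1_HCC, and 37.9, 34.7 and 50.2 in MYC_Recur. OFF libraries were below all others (log2 fold change -2.12, SE 0.34, adjusted p = 3.95e-05 in MYC_OFF; -1.37, SE 0.34, adjusted p = 0.00306 in MYC_Twist1_OFF; 2.08, SE 0.38, adjusted p = 0.000201 in MYC_Recur against MYC_OFF).

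Chaf1b, a subunit of the histone chaperone CAF-1, had 8.85, 4.18 and 7.56 in MYC_OFF, against 15.6, 17.8, 13.7, 10.8 and 18.1 in MYC_HCC. Values were 5.51, 8.32 and 5.87 in MYC_Twist1_OFF, against 17.4, 16.5, 14.3, 16.3 and 13.2 in MYC_Twist1_HCC, and 16.7, 13.3 and 14.1 in MYC_Recur. The ranges were apart in both pairs (log2 fold change -1.07, SE 0.22, adjusted p = 0.00051 in MYC_OFF; -1.14, SE 0.22, adjusted p = 0.000486 in MYC_Twist1_OFF). Its partner Chaf1a was called in MYC_Twist1_OFF (-1.40, SE 0.30, adjusted p = 0.00106) and not in MYC_OFF (-0.57, SE 0.30, adjusted p = 0.109); 52.5% of its exonic length overlaps exons of Ubxn6 on the other strand.

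**Figure D3:**
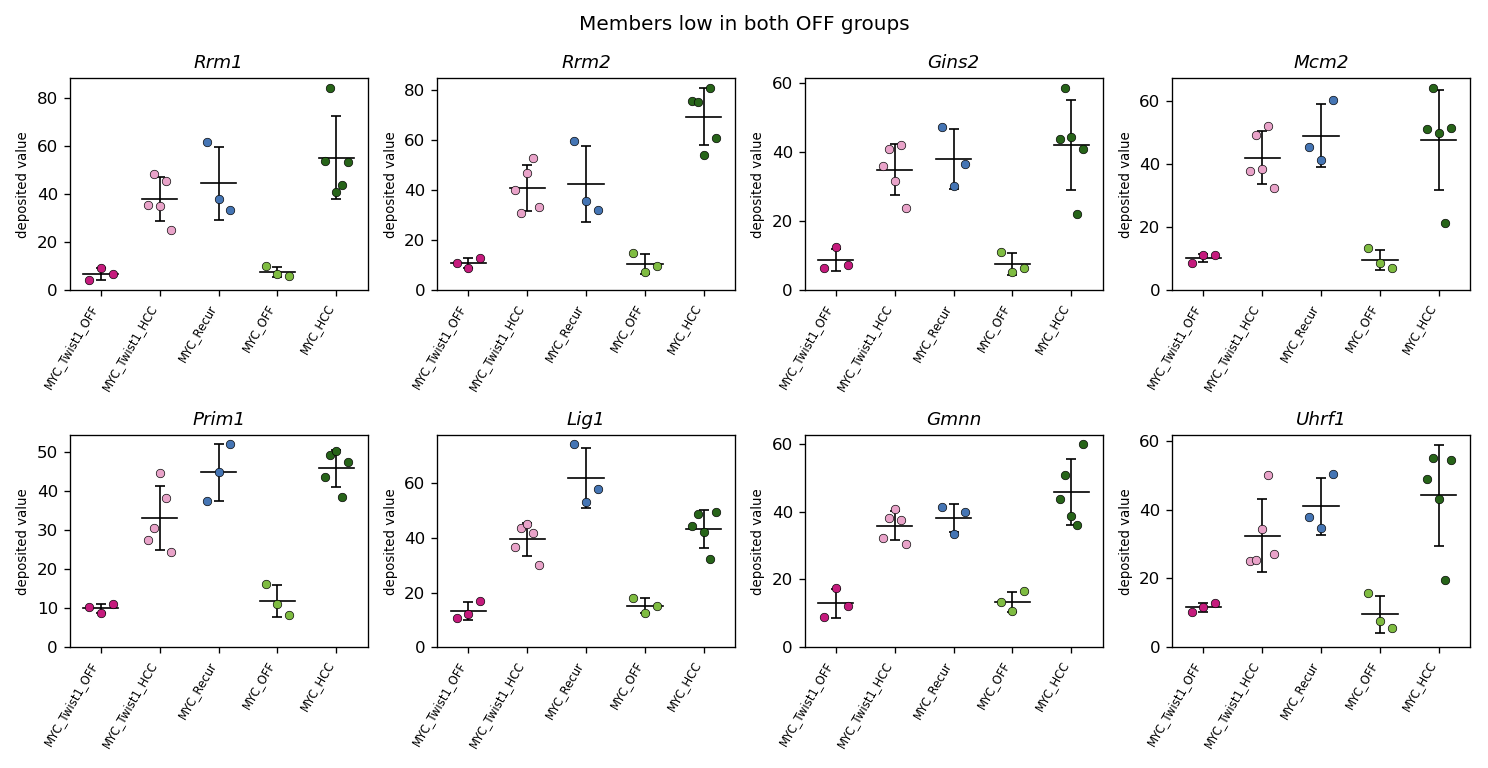
Deposited values (y axis, authors' normalized signal) of 8 genes that were lower in both OFF groups, by group (x axis); points are libraries, and lines and bars the mean and SD (n = 3, 5, 3, 3 and 5). MYC_Twist1_OFF and MYC_OFF libraries lie below the libraries of the other groups in each panel, as in Rrm1, whose group means were 6.79 ± 2.52, 37.9 ± 9.30, 44.5 ± 15.1, 7.54 ± 2.19 and 55.2 ± 17.2.

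**Figure D4:**
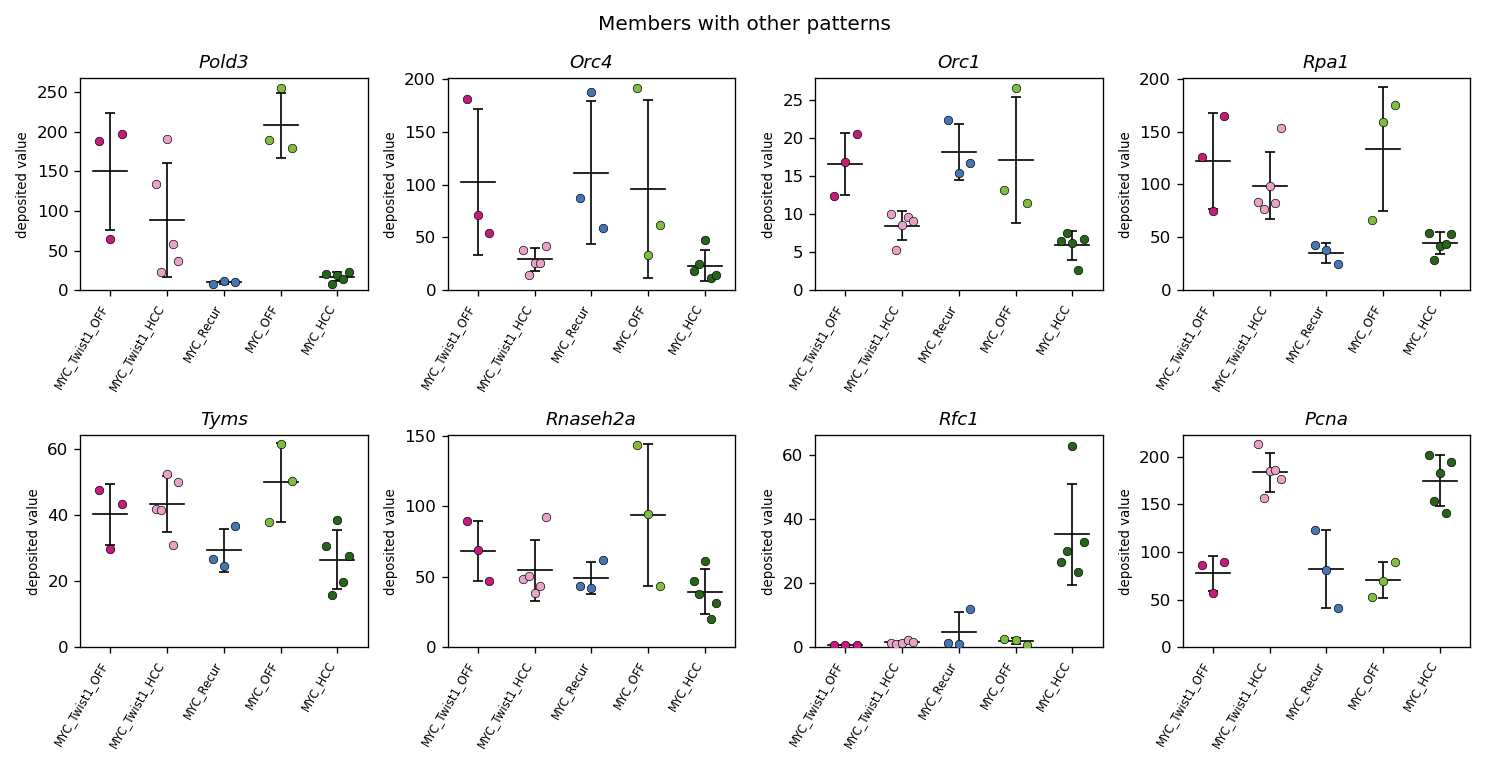
Deposited values (y axis, authors' normalized signal) of 8 genes with other courses, by group (x axis); points are libraries, and lines and bars the mean and SD (n = 3, 5, 3, 3 and 5). Pold3 and Rpa1 are high in MYC_OFF and low in MYC_Recur and MYC_HCC, Orc1 is high in MYC_Twist1_OFF, MYC_Recur and MYC_OFF, Rfc1 is high in MYC_HCC only, and Pcna is low in MYC_Recur and both OFF groups.

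The 2 OFF comparisons share no library, and the log2 fold change had the same sign in both for 51 of the 53 genes. Across the 53 genes Pearson's r between the 2 sets of fold changes was 0.851, and across all 13253 tested genes it was 0.9; genes are not independent replicates, and in both comparisons only the HCC libraries are marked as re-analysed. Lower in MYC_OFF alone were Rfc1, Rfc3, Prim2, Pole2 and Dna2, and lower in MYC_Twist1_OFF alone were Dut and Chaf1a; the call of Dut was lost without any 1 of 15 libraries and under all 4 other scalings. That a gene was called in 1 comparison only does not show that the OFF effects differed: for the difference itself limma called 0 of 53 genes (0.0226% of all genes higher and 0.0755% lower), with 7 at an unadjusted p under 0.05 (7.79% of all genes). Those 7 were Mcm3, Rfc1, Pold3, Pole2, Rpa1, Rrm2 and Tyms.

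MYC_Twist1_OFF compared with MYC_OFF directly, neither marked as re-analysed, gave 0 of 53 calls by limma and none at an unadjusted p under 0.05, where 2.49% of all genes were under it; over all genes 0.00755% were called lower and 0% higher. The fold changes of the 53 genes ran from -0.72 (Rfc1) to 0.50 (Rfc3), with a median of 0.06. Library values lay without overlap higher in 1 gene (2.13% of all genes) and lower in 1 (2.22%). At 3 libraries a group this does not show that the levels were equal.

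**Figure D5:**
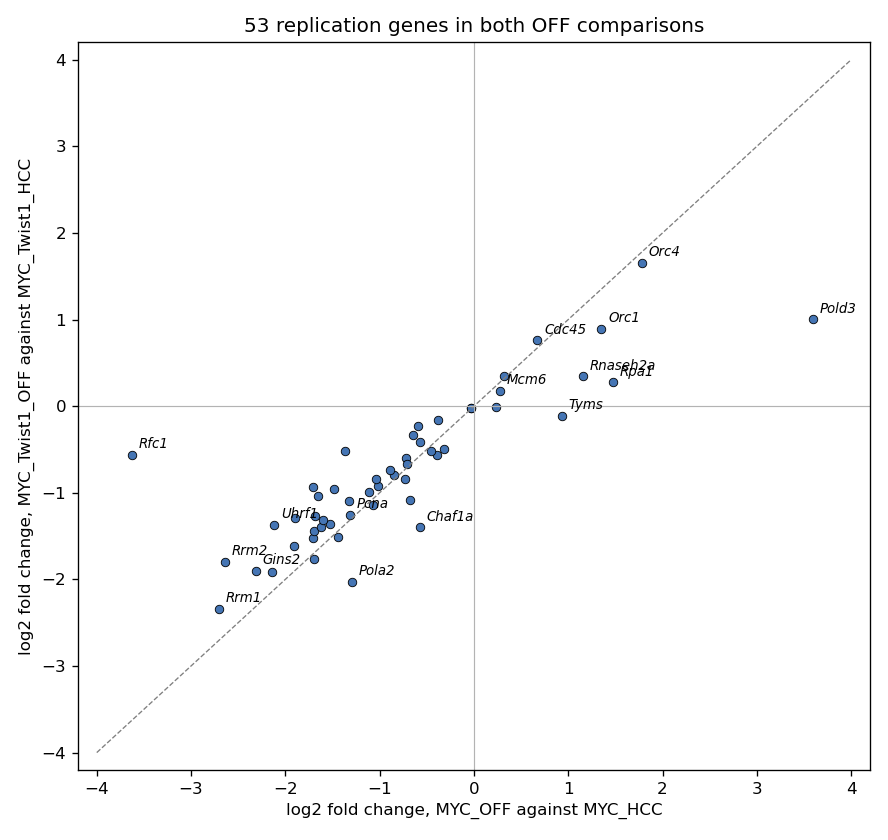
Log2 fold change in MYC_Twist1_OFF against MYC_Twist1_HCC (y axis) and in MYC_OFF against MYC_HCC (x axis) for the 53 genes, each a point, on the log2(value + 1) scale; the dashed line marks equal values. Rfc1 (-0.56 and -3.62) and Pold3 (1.0043 and 3.60) lie farthest from the line.

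In MYC_Twist1_HCC against MYC_HCC, both re-analysed, 5 genes were called: Rfc1 and Rrm2 lower, and Pold3, Rpa1 and Cdt1 higher. Library values did not overlap in 3 genes on the higher side (5.73% of all genes) and 2 on the lower side (5.95%). Cdt1, the licensing factor, had 50.96, 45.5, 53.2, 49.1 and 50.02 in MYC_Twist1_HCC, against 39.4, 36.02, 31.2, 17.3 and 35.9 in MYC_HCC, without overlap (log2 fold change 0.67, SE 0.20, adjusted p = 0.0489). It had 53.5, 43.4 and 51.7 in MYC_Twist1_OFF and 43.7, 37.8 and 32.6 in MYC_Recur. The call of Cdt1 was lost without any 1 of 15 libraries and with these 2 groups fitted alone, so that of the 5 only Rfc1 kept its call under every alternative tried.

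MYC_Recur against MYC_HCC gave the 6 calls described above: Orc1, Orc4, Dut and Rpa3 higher, and Pcna and Rfc1 lower. The median of the 53 genes was -0.0025, against 0.08 for all genes. Library values lay without overlap above MYC_HCC in 9 genes (13% of all genes) and below it in 3 (7.66%). Only Orc1 and Rfc1 kept their calls under every alternative tried.

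Other replication genes, a further list of 32 outside the 53, were called about as often as all genes in the comparisons with OFF groups. In MYC_OFF 13 were lower and 6 higher (39.4% and 18.9% of all genes), in MYC_Twist1_OFF 13 and 4 (33.5% and 13.1%), and in MYC_Recur against MYC_OFF 11 were higher and 4 lower (37.5% and 12%). The chromatin remodeler gene Hells had 4.50, 2.91 and 6.59 in MYC_OFF, against 36.2, 46.9, 30.9, 24.03 and 46.2 in MYC_HCC, and 3.68, 5.89 and 6.74 in MYC_Twist1_OFF, against 38.1, 29.6, 38.9, 52.2 and 29.3 in MYC_Twist1_HCC. Its MYC_Recur values were 35.8, 34.3 and 55.3. Hells (-2.75 in MYC_OFF, -2.58 in MYC_Twist1_OFF), Rnaseh2b (-2.77 and -2.66), Mcmbp, which binds the Mcm proteins (-1.38 and -1.10), the fork protection gene Tipin (-1.51 and -1.82), the thymidylate kinase gene Dtymk (-1.0048 and -1.45) and topoisomerase II alpha (Top2a, -0.84 and -0.71) were lower in both OFF comparisons and higher in MYC_Recur against MYC_OFF.

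The 4 genes higher in both OFF comparisons were Dctpp1, which hydrolyses modified dCTP (3.91 and 2.0001), the loader factor gene Dscc1 (2.31 and 1.53), Mtbp (1.79 and 0.79) and Atad5, which helps unload the clamp (1.92 and 2.26); Atad5 was named after its values were seen and had the largest rise of the list in MYC_Twist1_OFF. Dctpp1 had 1925, 3773 and 3442 in MYC_OFF, against 309, 206, 252, 88.1 and 193 in MYC_HCC. In MYC_Twist1_HCC against MYC_HCC the calls were of Dctpp1 (2.08), Dscc1 (1.18), the helicase gene Recql4 (0.88) and Donson (0.63), each higher. In MYC_Recur against MYC_HCC, Recql4 (1.46), Mtbp (1.07) and Mcm9 (0.83) were higher.

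Of a list of 18 E2F and S phase entry genes, 8 were lower and 5 higher in MYC_OFF (39.4% and 18.9% of all genes), 9 lower and 3 higher in MYC_Twist1_OFF (33.5% and 13.1%), and 7 higher and 4 lower in MYC_Recur against MYC_OFF (37.5% and 12%); nothing is read from these counts about the list. Their medians were -0.69, -0.71 and 0.49, beside -1.02, -0.84 and 1.04 for the 53 genes. The proliferation gene Mki67 lay between 9.61 and 17.5 in the OFF libraries and between 32.8 and 67.2 in the others.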

How the data were processed

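RNA was sequenced from 19 flash-frozen mouse liver tumor samples. The authors' deposited table holds a normalized signal per gene and library with 2 decimals; the sources used here give neither its unit nor its formula. The submitters' processing notes name Trimmomatic, STAR, Picard, featureCounts, DESeq2 and the mouse build mm10, without roles. Of 19511 symbols, 25 that were bare numbers were left out. Depth is unknown, so no counting interval could be given, and precision rests on the number of libraries.

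Groups and replicate numbers were taken from the labels. Values were tested as log2(value + 1) with limma-trend 3.58.1 (R 4.3.3) in 1 fit of 5 group means, two-sided, over the 13253 genes with a value of at least 1 in at least 3 libraries, with Benjamini-Hochberg adjustment over all of them and calls at an adjusted p under 0.05. Fold changes on this scale understate those of low genes. On simulated data, with 200 of 13253 genes shifted, the fit recovered 21% (MYC_Recur against MYC_OFF) to 61% (MYC_Twist1_HCC against MYC_HCC) of 2-fold shifts. Of 4-fold shifts it recovered 75% to 96%. The share of false calls was 3.03% to 8.26%, with 7.03% in MYC_OFF against MYC_HCC. In the data far more genes were called there (2511 higher and 5221 lower). The adjusted threshold depends on how many genes change. The simulated shares therefore do not describe the comparisons with many calls. The 6 comparisons and the difference between both OFF effects were computed. Alternatives were 4 scalings, pseudocounts, no filter, and a filter at a value of at least 5 in 3 libraries. Further ones were only the groups compared, array weights, the replicate number as a block, and leaving out each library.

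Genes named in full were, per role, those with the smallest p in MYC_OFF against MYC_HCC (3, or 2 in roles of up to 5 genes), every gene higher in an OFF comparison, and up to 6 called genes per other comparison; of the other replication genes, up to 4 called per comparison. A gene that this rule names is not reported here. The members and lists were chosen with earlier results of these data known. Promoters came from RefSeq (GRCm38.p6) and gene positions from GENCODE (GRCm38). Figures were drawn with matplotlib 3.10.9.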

Additional observations from a re-analysis of the deposited data

Results flagged for a closer look

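In groups of 5 libraries, 1 library lay far from the other 4 by Dixon's test in 11 of 106 checks of the 53 genes. For independent, normally spread values about 1 in 20 would. The checks share the same libraries and are not independent, and the share over all genes is not given. No excess is therefore read from this count. In MYC_Twist1_HCC 5, Mcm10 was 13.62 (others 21.86 to 23.82), Gins4 14.44 (31.26 to 37.31), Rpa1 153.06 (76.91 to 98.51) and Rnaseh2a 92.39 (38.58 to 50.75). In MYC_Twist1_HCC 3, Mcm7 was 112.98 (91.87 to 96.04) and Cdc45 17.94 (24.21 to 26.03). In MYC_Twist1_HCC 2, Orc5 was 34.88 (24.96 to 26.22) and Prim2 20.14 (13.89 to 15.39). In MYC_HCC 4, Orc1 was 2.66 (6.27 to 7.56). In MYC_HCC 3, Rfc1 was 62.76 (23.36 to 32.83) and Prim2 11.72 (15.33 to 16.33). The call of Rpa1 in MYC_Twist1_HCC against MYC_HCC was lost without MYC_Twist1_HCC 5, while those of Orc1 and Rfc1 in MYC_OFF against MYC_HCC held without each of these libraries.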

How the results depend on the processing

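In MYC_OFF against MYC_HCC the median of the 53 genes stayed below that of all genes under the 4 other scalings. Counts below are genes of the 53 called higher, then lower, by limma. With the median of ratios, MYC_OFF against MYC_HCC gave 11 higher, MYC_Twist1_OFF against MYC_Twist1_HCC 5 and 21, and MYC_Recur against MYC_OFF 19 and 7. With the trimmed mean of M values the first gave 10 higher, the second 4 higher and the third 21 and 6. With the upper quartile they gave 11 and 23, 6 and 20, and 17 and 7. MYC_Twist1_HCC against MYC_HCC gave 1 lower with the upper quartile, with equal sums and with no filter. Array weights gave it 5 and 18, where 1743 of all tested genes were higher and 2282 lower. Leaving out MYC_HCC 4 and 5 gave it 0 and 1, where 189 of all tested genes were higher and 163 lower. MYC_Recur against MYC_HCC gave 2 higher with only the groups compared, with the replicate block and without MYC_HCC 4 and 5, and 4 lower with array weights. Of all tested genes 800, 579 and 499 were higher in these settings, in that order, and 929 were lower with array weights. The difference between both OFF effects gave 1 higher (Rfc1) with a pseudocount of 5 and with only the groups compared.

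The signs turned for Rfc3 (0.0016, adjusted p = 0.997) and Dna2 (0.0198, adjusted p = 0.948) in MYC_OFF with the upper quartile, and for Mcm7 in MYC_Recur against MYC_OFF when scaled by the median of ratios (-0.0721) or by the upper quartile (-0.0796). Leaving out each library gave 0 to 3 higher and 1 to 2 lower in MYC_Twist1_HCC against MYC_HCC, 4 to 8 and 30 to 37 in MYC_OFF against MYC_HCC, 0 to 3 and 28 to 34 in MYC_Twist1_OFF against MYC_Twist1_HCC, 30 to 36 and 2 to 4 in MYC_Recur against MYC_OFF, 2 to 6 and 1 to 4 in MYC_Recur against MYC_HCC, 0 and 0 in MYC_Twist1_OFF against MYC_OFF, and 0 to 1 and 0 for the difference between OFF effects. Counts of all tested genes moved as well. In MYC_OFF against MYC_HCC they were 2545 higher and 5514 lower without MYC_HCC 4, and 2359 and 4547 without MYC_OFF 2. Beside them stood 6 and 37, and 6 and 32, of the 53 genes. The causes were not tested.

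The labels give replicate numbers without saying that they pair samples. Same-numbered libraries of different groups correlated between -0.214 and 0.384 in their deviations from the group means. For differently numbered libraries the range was -0.449 to 0.28. A correlation over 0.1 was seen in 10 of 32 same-numbered pairs and in 18 of 110 others. Of the 19 libraries, 7 correlated best with one of their own number. Whether the numbers pair samples was not tested further, and the main fit took no pairs. With the replicate block MYC_Twist1_OFF against MYC_Twist1_HCC gave 1 higher, in place of 2, as Orc1 was no longer called.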

Other observations

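Single genes of the E2F and S phase entry list moved farther than most of the 53 replication genes. E2f3, an activating E2F factor, had 32.05, 429 and 124 in MYC_OFF, against 5.88, 1.01, 2.38, 5.52 and 6.13 in MYC_HCC (log2 fold change 4.70, SE 1.13, adjusted p = 0.00172 by limma), and 0.26, 0.82 and 0.79 in MYC_Recur. E2f4, which mostly represses in resting cells, had 8.61, 3.68 and 2.82 in MYC_OFF, against 64.6, 62.6, 71.9, 34.3 and 73.5 in MYC_HCC (-3.44, SE 0.43, adjusted p = 2.89e-06), and 62.4, 52.4 and 74.7 in MYC_Recur. Rbl1, a pocket protein that binds E2F factors, had 19.1, 21.7 and 77.6 in MYC_OFF, against 2.39, 2.42, 3.59, 4.72 and 3.53 in MYC_HCC (2.96, SE 0.37, adjusted p = 3.6e-06). The fold changes in MYC_Recur against MYC_OFF, neither marked as re-analysed, were -6.24 for E2f3, 3.51 for E2f4 and -2.93 for Rbl1. The 3 were chosen after their values were seen.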
